A study of Mus musculus with 4 samples.

Results

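Monocyte-committed progenitors of the bone marrow were examined in mice lacking Toll-like receptor 9 (TLR9-/-) and in wild-type (WT) mice. These are cells that still carry transcripts of the primary granule proteases, which are made early in the granulocyte and monocyte lineages, but already express the monocyte regulators Irf8 and Csf1r above the granulocyte regulators Cebpe and Gfi1. Cells of the marrow were kept when they had 200 to 10000 detected genes and at most 10% of their transcripts from the mitochondrial genome. A cell was a member when the summed count of Mpo, Elane, Prtn3 and Ctsg was at least 10, the summed count of Irf8 and Csf1r exceeded that of Cebpe and Gfi1, Siglech was at most 1 and Camp and Ngp together made up under 1% of its transcripts. Counts are unique molecular identifiers (UMIs), each of which marks 1 captured transcript. By this rule 2536 of 39167 kept cells were members, out of 40545 cells in the files.

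The samples were 2 TLR9-/- mice, which carry a disrupted Tlr9 allele in every cell of the body, and 2 WT mice. Each mouse gave 1 library of marrow mononuclear cells from femur and tibia, separated on a density gradient and read from the 5′ end of the transcripts. The labels give the strain of all 4 mice, TLR9-/- and WT, as C57BL/6, and the study's methods as C57BL6/J. Per those methods 1 mouse of each genotype was used in each of 2 experiments. Age was not given for these mice in the sources used here. Kept cells held 50204578 and 63958243 UMIs in TLR9-/- libraries 1 and 2 and 31210188 and 41384657 UMIs in WT libraries 1 and 2. The smallest two-sided p that exact permutation of 2 against 2 mice allows is 0.33. Labels do not say more than that the libraries are separate samples, and p-values measure the spread between them.

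Monocytes arise from marrow progenitors that pass through a granule-producing stage shared with the neutrophil lineage. Irf8, a transcription factor, directs progenitors towards monocytes and dendritic cells and restrains the neutrophil programme driven by Cebpe and Gfi1. Csf1r is the receptor for the growth factor CSF1, and monocytic cells that respond to CSF1 and RANKL can give rise to osteoclasts. As such cells mature they lose transcripts of Mpo, Elane, Prtn3 and Ctsg and gain those of Lyz2 (lysozyme), Ccr2 (the receptor for marrow exit) and F13a1.

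Of the 4 granule genes used to find these cells, 3 carry the same short motif upstream of their starts, and these stretches are shown because those genes, with Ly6c2, mark the cells below. The 8 letters GAGGAAGT, a form of the core bound by ETS factors such as PU.1, were searched on both strands in the 250 bases before each RefSeq start of build GRCm38.p6. The motif was found in 2.44% of 32851 such windows and at 2.79% of 27025 genes. Among the 8 primary granule protein genes with a window it occurred at 4 (Mpo, Elane, Prtn3 and Ctsc), and among 16 monocyte maturation genes at 1 (Ly6c2). It was not present in these windows of Ctsg, Irf8 or Klf4. Each line below gives 28 bases, 5′ to 3′ along the gene's strand, with the match in capitals.
Mpo, chr11:87793550-87793577, plus strand: tggagagagaGAGGAAGTtgcctttgtc
Elane, chr10:79886217-79886244, plus strand: gtgtcccaggGAGGAAGTagggctgtgg
Prtn3, chr10:79879562-79879589, plus strand: aaactggaagGAGGAAGTgggacccaca
Ly6c2, chr15:75112062-75112089, minus strand: tgttggccctGAGGAAGTaagaaccaaa
The first base of the match lay at position -224 in Mpo, -85 in Elane, -95 in Prtn3 and -108 in Ly6c2, counted from the start listed first for each gene. A match describes letters only and is no evidence of binding.

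Members numbered 1067 and 820 in TLR9-/- libraries 1 and 2 and 353 and 296 in WT libraries 1 and 2. Their summed depth was 12986829 and 14304384 UMIs in the TLR9-/- libraries against 3349712 and 3572681 UMIs in the WT libraries. The median member held 11403 and 15896.5 UMIs in TLR9-/- libraries and 8627 and 11073.5 UMIs in WT libraries, so members were sampled more deeply than the median kept cell, which held between 1759 and 3618 UMIs. No more than 1 cell barcode was shared between the members of any pair of libraries. Among members, 117 lay at 10 or 11 granule UMIs, just inside the threshold, and 137 cells that passed the other conditions lay just outside at 8 or 9. In 253 members the monocyte regulators exceeded the granulocyte regulators by a single UMI, and a further 565 granule-positive cells were tied and were left out. The Lyz2 level just inside and just outside the granule threshold was 90.3 and 89.5 UMIs per 10000 in TLR9-/- library 1, 81.7 and 128 in TLR9-/- library 2, 102.0 and 126 in WT library 1 and 73.3 and 104 in WT library 2. The cells outside were thus higher in 3 of 4 libraries.

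Other lineages left some transcripts in these cells. A search for doublets, pairs of cells in 1 droplet, marked 11.5% and 6.83% of TLR9-/- members and 8.22% and 7.09% of WT members, all of which were kept. Members with more than 2 UMIs on lymphoid genes or at least 1% globin UMIs numbered 332, and results were also obtained without them. Of 10 erythroid markers listed, 9 were among the genes counted, and all 9 were detected. Levels are in CPM, UMIs scaled to a common library total, for summed lists without further scaling. The erythroid markers summed to 1026 and 448.0 CPM in TLR9-/- members and to 2413 and 1986 CPM in WT members. The globin gene Hbb-bs was the most abundant at 763 and 192 CPM against 1781 and 840 CPM. Both TLR9-/- libraries thus lay below both WT libraries for erythroid transcripts. The 12 B lineage markers summed to 543 and 326 CPM against 524 and 435 CPM, and the 10 neutrophil markers to 1630 and 1428 CPM against 1910 and 1957 CPM. Their part in the differences below was not tested.

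All 5 markers named for these cells were present in every library. Mpo, the peroxidase of azurophilic granules, stood at 30.04 and 47.1 UMIs per 10000 in TLR9-/- members and 27.3 and 28.1 in WT members. Prtn3, or proteinase 3, stood at 63.3 and 72.8 against 65.5 and 60.0 UMIs per 10000. The transcription factor Irf8 stood at 5.59 and 5.81 against 5.03 and 4.89, and the receptor gene Csf1r at 0.794 and 0.840 against 0.857 and 0.890. These 4 genes were used by the rule, so their presence is no finding. Ly6c2, a surface protein of inflammatory monocytes that the rule did not use, stood at 43.2 and 41.9 UMIs per 10000 in TLR9-/- members and 61.6 and 46.8 in WT members, against 21.1, 20.6, 17.0 and 12.4 over all kept cells of the same libraries. With each cell thinned to 2000 UMIs, Ly6c2 was detected in 90.2% and 90.7% of TLR9-/- members and 92.8% and 89.0% of WT members. B lineage cells should lack it, but Ly6c2 was among the genes that scored cells as monocytes. Low shares in B lineage cells are thus in part set by that scoring. They were 1.102% and 3.60% in TLR9-/- and 2.46% and 4.49% in WT libraries. Without thinning these shares were 94.4%, 94.5%, 93.2% and 91.2% in members and 2.07%, 4.55%, 2.60% and 6.43% in B lineage cells, whose median depth was 1201, 1751, 1141 and 1617 UMIs. The data do not go against the name given to these cells, but Ly6c2 was also detected in most granulocyte-committed progenitors, as given below.

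Granulocyte-committed progenitors, chosen by the same granule threshold but with Cebpe and Gfi1 above Irf8 and Csf1r, numbered 957, and classical monocytes, with under 3 granule UMIs, at least 3 Ly6c2 UMIs and at least 2 Csf1r and Ccr2 UMIs, numbered 1798. Members stood between these classes for Elane, Lyz2 and F13a1. Elane and Irf8 were used to choose the cells, so their order is a description only. Elane, neutrophil elastase, averaged 62.7 UMIs per 10000 in members, 241 in granulocyte-committed progenitors and 0.343 in classical monocytes. Lyz2 ran the other way, with 43.9 in members, 3.48 in granulocyte-committed progenitors and 178 in classical monocytes. F13a1 averaged 7.59, 0.587 and 14.0 in the same order. Irf8 averaged 5.33 UMIs per 10000 in members against 0.0958 and 3.98, and in WT library 2 members (4.89) were close to classical monocytes (4.603). The Ly6c2 level was also highest in members on average, at 48.4 against 28.8 and 36.3, and within each of the 4 libraries it was above that of classical monocytes (43.2, 41.9, 61.6 and 46.8 against 36.0, 32.2, 48.2 and 28.7), which were themselves chosen by Ly6c2.

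**Figure D1:**
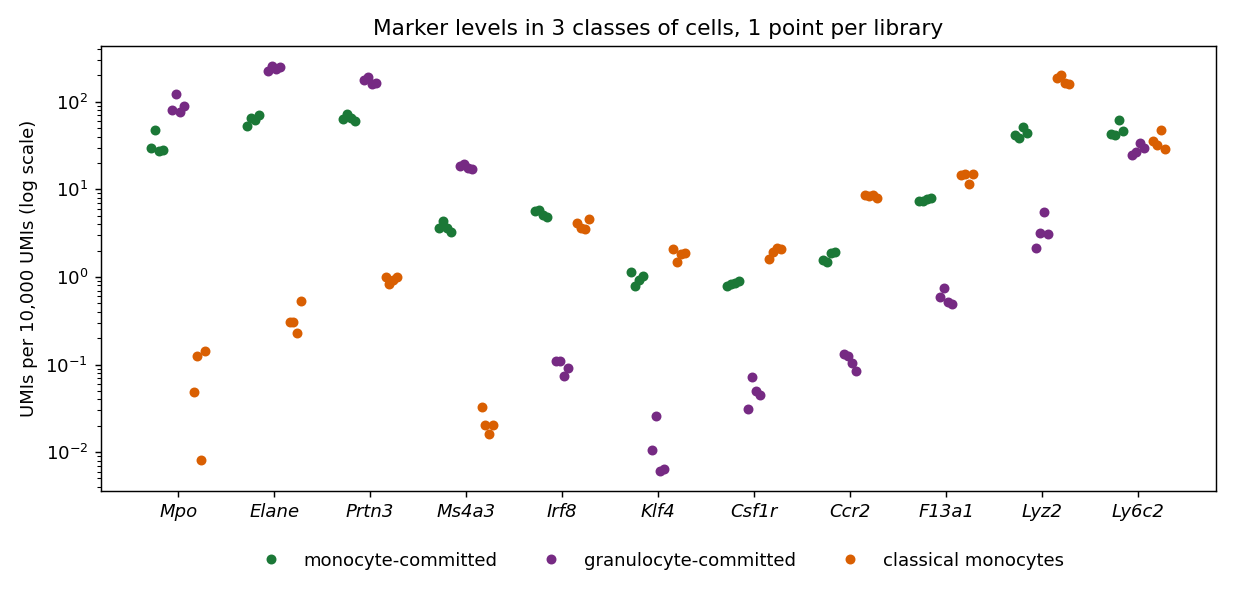
UMIs per 10000 UMIs (log axis) of 11 genes in monocyte-committed progenitors, granulocyte-committed progenitors and classical monocytes, with 1 point for each of the 4 libraries. Members lie between the other classes for Elane, Lyz2 and F13a1, while the mean of Irf8 is highest in members. Several of these genes chose the cells.

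Across 9959 genes, edgeR's quasi-likelihood test with the library as a block found 2516 genes higher (25.3%) and 2312 genes lower (23.2%) in members than in granulocyte-committed progenitors at an adjusted p under 0.05. The cells of both classes came from the same libraries and were separated by their own transcripts, so these counts describe the separation and are not evidence for it. Among the genes named by size, which leave out those of the rule, the largest rise was that of Klf4, a transcription factor of monocyte differentiation. Klf4 stood at 114, 77.8, 89.9 and 103 CPM in members of TLR9-/- libraries 1 and 2 and WT libraries 1 and 2, against 1.102, 2.70, 0.641 and 0.683 CPM in granulocyte-committed progenitors (log2 fold change 5.75, standard error 0.19). The groups were far apart in every library. Trem2, a receptor of macrophages and osteoclast precursors, stood at 47.6, 44.7, 49.9 and 47.0 CPM against 0.441, 0.900, 3.20 and 1.37 CPM (log2 fold change 5.40, standard error 0.20). Itga1, Stxbp6, Lilra6, Aif1, Met, Upb1, Lgals3 and Nrp1 completed the 10 genes named by size, with log2 fold changes of 4.66 to 5.40. Lgals3, the lectin galectin-3, was the most abundant of them with 729 ± 46.8 CPM in members and 29.5 ± 11.3 CPM in granulocyte-committed progenitors (SD, n = 4 libraries).

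Lower in members were Prom1, Wfdc21, Vcam1, Cd63, Pglyrp1, Lrg1, S100a9, S100a8, Rgcc and Actn1. Prom1, the stem and progenitor surface protein CD133, stood at 0.688, 1.78, 0.881 and 2.25 CPM in members against 34.0, 33.9, 34.6 and 42.4 CPM (log2 fold change -4.69, standard error 0.19). S100a8 and S100a9, subunits of the neutrophil protein calprotectin, averaged 903 ± 244 and 548 ± 49.5 CPM in members against 9097 ± 2019 and 6160 ± 1579 CPM (SD, n = 4 libraries). Cd63, a protein of azurophilic granule membranes, averaged 65.4 ± 19.3 against 1018 ± 143 CPM. Among 18 monocyte maturation genes, 14 were higher (against 25.3% of all genes) and 3 lower (against 23.2%) in members than in granulocyte-committed progenitors, with a median log2 fold change of 3.40, while the median over all genes tested was 0.0046.

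Against classical monocytes, 3223 genes (32.4%) were higher and 3201 (32.1%) lower in members by the same test, and here too the cells were separated by their own transcripts. Ms4a3, a membrane protein of granulocyte and monocyte progenitors, averaged 368 ± 42.9 CPM in members and 2.18 ± 0.724 CPM in classical monocytes (SD, n = 4 libraries). Kit, the receptor for stem cell factor, stood at 22.9, 27.0, 25.5 and 31.5 CPM against 0.404, 0.334, 0.787 and 2.89 CPM (log2 fold change 5.03, standard error 0.30). Cd34, a further progenitor marker, stood at 70.7, 88.9, 62.5 and 64.4 CPM against 3.64, 1.67, 3.15 and 4.82 CPM, and the granule protease gene Prss57 averaged 55.9 ± 15.6 against 1.27 ± 0.825 CPM. Gm11505 stood at 59.2 ± 16.7 CPM in members and at 0 UMIs in classical monocytes, but it overlaps Mpo and its reads may not be separable from those of Mpo. The other genes named by size were Fkbp11, Gm1604a, Egfl7, Dmkn and Adgrg3. Of 12 early progenitor genes tested 10 were higher and 1 lower in members, and all 20 DNA replication genes were higher (median log2 fold change 1.39).

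Genes lower in members than in classical monocytes were Ms4a8a, Cd209a, Apoe, Fgr, Slfn1, Slfn5, Plbd1, Pla2g7, Klra2 and Cd300c2. Apoe, a lipid carrier, stood at 27.1, 32.1, 49.3 and 37.7 CPM in members against 698, 775, 670 and 1018 CPM (log2 fold change -4.47, standard error 0.14). Fgr, a kinase of the Src family in mature myeloid cells, averaged 4.41 ± 0.777 against 91.4 ± 15.9 CPM. Slfn1 and Slfn5, members of an interferon-responsive family, averaged 8.73 ± 4.99 and 7.18 ± 1.45 against 158 ± 34.2 and 144 ± 25.9 CPM. All 24 interferon-stimulated genes that passed the threshold, of 25 tested, were lower in members (median log2 fold change -2.36), as were all 10 HIN-200 genes, which encode DNA sensors (-2.15), and 11 of 11 dendritic cell and MHC class II genes (-2.75). Monocyte maturation genes were lower in 16 of 18 (against 32.1% of all genes) and higher in 2 of 18 (against 32.4%). Ly6c2 and Ccr2 in this list were used to choose the classical monocytes, so the tally is in part set by that choice and is a description.

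Members differed among themselves along the amount of granule transcript. For description they were divided, after their values had been seen, into those with under 0.5%, with 0.5 to 2% and with 2% or more of their UMIs on the 4 granule genes. The lowest range held 31.8% and 31.0% of TLR9-/- members and 31.2% and 39.5% of WT members, and the highest range held 27.6% and 37.2% against 30.9% and 28.0%. Neither share separated the genotypes. Lyz2, which the rule did not use, stood at 88.5, 94.7, 103 and 79.2 UMIs per 10000 in the lowest granule range of TLR9-/- libraries 1 and 2 and WT libraries 1 and 2, and at 11.01, 12.2, 14.5 and 9.54 in the highest. Ccr2 stood at 2.52, 2.90, 3.11 and 2.996 in the lowest range and at 0.752, 0.687, 0.932 and 0.966 in the highest. Both genes thus fell with rising granule transcript in all 4 libraries. Ms4a3 ran against them, from 0.227, 0.176, 0.236 and 0.183 to 7.39, 7.46, 7.66 and 6.86 UMIs per 10000, and Kit from 0.0949, 0.123, 0.118 and 0.137 to 0.395, 0.402, 0.439 and 0.515. The Ly6c2 level moved less, with 39.8, 37.9, 59.6 and 39.4 in the lowest range and 43.7, 41.7, 63.7 and 51.4 in the highest. The ranges also differed in depth, with medians of 8700, 11125.5, 7067 and 8756 UMIs per cell in the lowest and 14117, 22805, 11870 and 15376 UMIs in the highest.

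**Figure D2:**
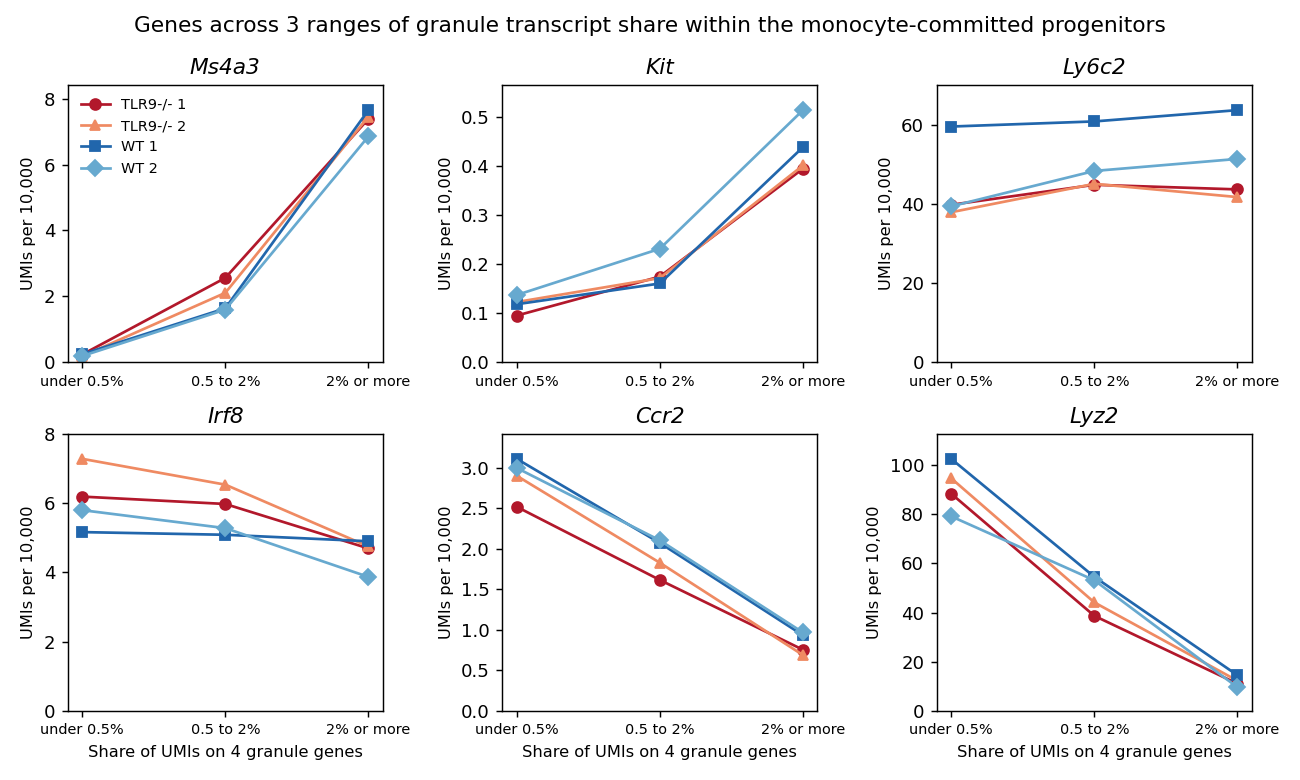
Levels of 6 genes in UMIs per 10000 UMIs (linear axes from 0) against 3 ranges of the share of a member's UMIs on Mpo, Elane, Prtn3 and Ctsg, with 1 line per library. Ms4a3 and Kit rise and Lyz2 and Ccr2 fall with the granule share in all 4 libraries, while Ly6c2 varies less.

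Across cells thinned to 2000 UMIs, the Spearman correlation of Mpo with Lyz2 was -0.65 and -0.63 in TLR9-/- members (1063 and 815 cells) and -0.70 and -0.60 in WT members (345 and 292 cells). Elane and Ms4a3 correlated at 0.53 and 0.57 against 0.58 and 0.55. These values are descriptions, since the cells of a library share their capture and amplification. Many members carried transcripts of dividing cells. After thinning to 1000 UMIs, 72.4% and 73.3% of TLR9-/- members and 72.7% and 75.9% of WT members had at least 3 UMIs on 28 genes of G2 and mitosis. In granulocyte-committed progenitors the shares were 64.6%, 62.3%, 66.7% and 67.8%, lower than in members in each of the 4 libraries, but at 2000 UMIs per cell the order turned in TLR9-/- library 1 (90.3% in granulocyte-committed progenitors and 89.8% in members) and in WT library 2 (89.02% and 88.7%). In classical monocytes the shares at 1000 UMIs were 32.9%, 30.2%, 34.8% and 35.5%. Between genotypes the mean share in members differed by -1.52 percentage points (72.8% ± 0.642 in TLR9-/- and 74.3% ± 2.27 in WT; SD, n = 2 libraries per genotype; exact permutation p = 0.67, two-sided), and this difference changed sign with the depth to which cells were thinned.

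The first comparison between genotypes asked whether the marrow of TLR9-/- mice held more of these progenitors. Members made up 9.90% of the kept cells in TLR9-/- library 1 (exact Clopper-Pearson 95% interval 9.34 to 10.5%), 9.19% in TLR9-/- library 2 (8.60 to 9.81%), 3.34% in WT library 1 (3.004 to 3.70%) and 3.33% in WT library 2 (2.96 to 3.72%). These intervals cover counting error only. Both TLR9-/- libraries lay above both WT libraries. The mean share was 9.55% ± 0.496 (SD, n = 2) in TLR9-/- mice, 2.86-fold that of WT mice at 3.33% ± 0.00776 (SD, n = 2). The rule counts raw UMIs, and the median kept cell held 2545 and 3618 UMIs in TLR9-/- and 1759 and 2287 in WT libraries. In cells thinned to 2000 UMIs the shares were 8.04% and 6.43% against 3.51% and 2.44%, a smaller log2 difference of 1.28. B lineage cells made up 21.05% and 11.6% of kept cells against 33.1% and 30.4%. Their part in the higher share of members was not tested. Counts of 15 classes were compared with edgeR's quasi-likelihood test, in which 0 classes (0.0%) passed after adjustment at 0.05, while 3 lay under 0.05 before adjustment. For members this gave a log2 difference of 1.52 with a standard error of 0.34 and an adjusted p of 0.0540 (edgeR), just outside the threshold. The result passed the threshold under 6 of the alternatives given in the closing section. Among them was the fit with the replicate number as a block (adjusted p = 0.00478, edgeR), with 6 of 15 classes called. The labels do not say that this number marks a shared experiment. Without members carrying lymphoid or globin UMIs the adjusted p was 0.0408, and with 1 library left out it was 0.177 to 0.303, at log2 fold changes of 1.46 to 1.57.

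Granulocyte-committed progenitors made up 3.01% and 3.68% against 1.19% and 2.00% of cells, which did not overlap but did not pass in the test of 15 classes (adjusted p = 0.176, edgeR). By the gate used here, which differs from the monocyte class of that test and was not itself tested, classical monocytes made up 5.50% and 6.86% against 3.40% and 2.63%. Members made up 76.7% and 71.4% of the committed granule-positive cells, the sum of members and granulocyte-committed progenitors, in TLR9-/- mice and 73.7% and 62.4% in WT mice. The WT library numbered 1 lay between the TLR9-/- libraries, and the difference of 5.97 percentage points was not separated from the spread between libraries (exact permutation p = 0.67, two-sided). Leaving out WT library 2 reduced it to 0.345 percentage points, and leaving out WT library 1 raised it to 11.6. There were 1.80 and 1.34 members per classical monocyte in TLR9-/- libraries and 0.983 and 1.26 in WT libraries. These ratios did not overlap, but the libraries numbered 2 were close to each other (exact permutation p = 0.33, two-sided, the smallest this design allows).

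**Figure D3:**
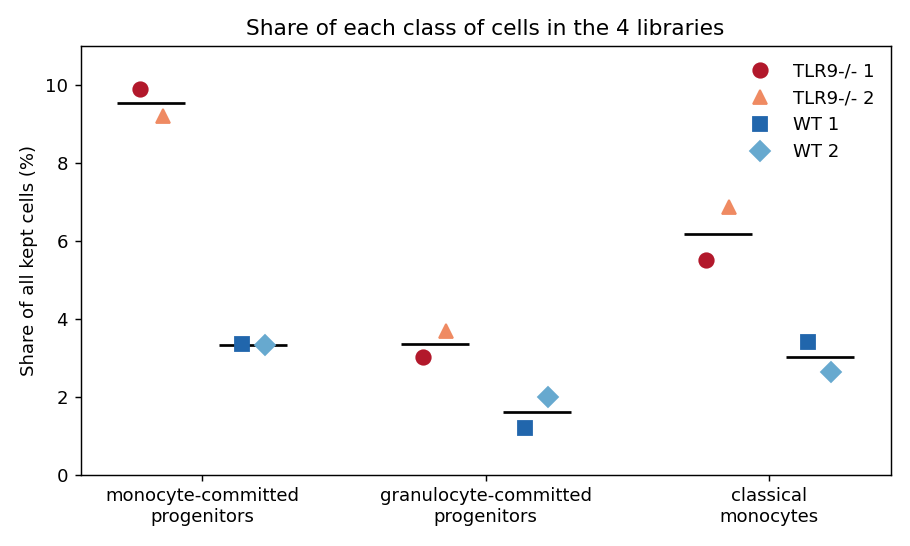
Share of all kept cells (%) in monocyte-committed progenitors, granulocyte-committed progenitors and classical monocytes, with 1 point per library and a bar at the mean of each genotype. The TLR9-/- libraries lie at 9.90 and 9.19% for monocyte-committed progenitors, above the WT libraries at 3.34 and 3.33%.

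The second comparison asked which transcripts within members differed by genotype, on UMIs summed over the members of each library. Tlr9 itself, the receptor for unmethylated CpG DNA and the disrupted gene, had 8 and 7 UMIs in TLR9-/- members and 5 and 7 in WT members, or 0.616 and 0.489 against 1.49 and 1.96 CPM before scaling (log2 fold change -1.66, standard error 0.56, adjusted p = 0.412). Over all kept cells it had 41 and 48 UMIs against 120 and 97. Both TLR9-/- libraries lay below both WT libraries relative to depth. Where in the gene the UMIs of the TLR9-/- libraries lie was not analysed here, so they do not check the label. Of 10806 genes tested, 51 passed an adjusted p under 0.05 (0.472%), of which 22 were higher (0.204%) and 29 lower (0.268%) in TLR9-/- members. With the replicate number as a block 202 genes passed, and the genotype calls below are from the fit without it. The 4 libraries did not overlap between genotypes for any of these 51 genes, and over all genes tested 19.8% lay higher and 21.4% lower without overlap. Before adjustment, 1022 genes (9.46%) lay under 0.05. The median log2 fold change of all genes was -0.02.

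Several genes were detected in only 1 genotype or nearly so. Gm6594, a processed pseudogene, had 769 and 1265 UMIs in TLR9-/- members and 0 in WT members, which is at least 172-fold higher when the WT members together are assigned 3 UMIs. BC018473, a noncoding transcript annotated as antisense, had 426 and 692 UMIs against 0 and was at least 94.5-fold higher by the same floor. Ncmap, a myelin-associated protein, had 217 and 300 UMIs against 0 (at least 43.7-fold), Gm35082 had 172 and 262 against 0 (at least 36.7-fold) and the sialyltransferase gene St6galnac2 had 59 and 52 against 0 (at least 9.39-fold). The adjusted p of these genes lay between 0.000522 and 0.0342 (edgeR), and St6galnac2 did not pass without WT library 1. Fhl2, a LIM-domain protein, had 135 and 153 UMIs against 1 and 0, a ratio of 73.1 with a counting interval of 13.01 to 2895.

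Genes present in both genotypes and higher in TLR9-/- members included Wdfy1, an endosomal adaptor of Toll-like receptor signalling. Wdfy1 stood at 34.4 and 35.6 CPM in TLR9-/- and 5.69 and 6.59 CPM in WT members (log2 fold change 2.51, standard error 0.20, adjusted p = 0.00117). Mid1, a ubiquitin ligase of microtubules, stood at 56.2 and 72.9 against 10.2 and 11.5 CPM (2.57, standard error 0.21, adjusted p = 0.00117). Fbp1, the gluconeogenic enzyme fructose-bisphosphatase, stood at 18.0 and 21.6 against 5.39 and 2.58 CPM (2.32, standard error 0.30, adjusted p = 0.0135). Each of these genes was separated between genotypes by more than the range within either. Cited4, a transcriptional co-regulator, stood at 17.4 and 22.3 against 5.69 and 1.43 CPM (log2 fold change 2.49), which became 3.80 without WT library 1 and 1.80 without WT library 2. Without WT library 1 the value of Fbp1 became 2.95. Gm9008 (ratio 40.8, counting interval 7.23 to 1623) and Fn3krp (ratio 12.1, counting interval 4.05 to 59.3) complete the 12 genes named by size in this direction, and Fn3krp did not pass without WT library 1. Arsb, the lysosomal sulfatase arylsulfatase B, stood at 101.0 and 111 against 44.3 and 53.8 CPM (1.11, standard error 0.16, adjusted p = 0.0217) and is given because it returns below.

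Among genes lower in TLR9-/- members, several with at least 20 UMIs in each WT library were at or near 0 UMIs in TLR9-/- members, among them Gm16867, Gm34084 and Trim12a, an antiviral-type ubiquitin ligase of a gene cluster on chromosome 7. Gm16867 had 0 UMIs in TLR9-/- and 20 and 25 in WT members, at least 59.1-fold lower. Gm34084 had 1 and 1 UMIs against 23 and 28, a ratio of WT over TLR9-/- of 101 with a counting interval of 26.4 to 853. Trim12a had 1 and 1 UMIs against 56 and 50, a ratio of WT over TLR9-/- of 209 with a counting interval of 56.4 to 1748 (adjusted p = 0.000457). Of 7 members of the Trim5, Trim12, Trim30 and Trim34 cluster that were tested, 4 fell (Trim12a, Trim30d, Trim5 and Trim34a), 0 rose and 3 did not pass, while 0.268% of all genes tested fell. Trim30d had 1 and 4 UMIs against 38 and 24 (adjusted p = 0.0029), and Trim34a 12 and 14 against 33 and 22 (adjusted p = 0.012). Of the 3 that did not pass, Trim30c had a log2 fold change of 2.11, Trim12c 0.31 and Trim30a -0.39 (adjusted p = 0.342, 0.623 and 0.544, edgeR). The genes of this cluster are close copies of each other, so the assignment of reads among them is uncertain. Without WT library 1, Trim5 and Trim34a did not pass. Cyp4f18, a fatty acid hydroxylase that acts on leukotriene B4, stood at 5.76 and 7.22 CPM in TLR9-/- and 42.8 and 45.3 CPM in WT members (log2 fold change -2.76, standard error 0.19, adjusted p = 0.000522). Aoah, which deacylates and inactivates bacterial lipopolysaccharide, stood at 5.60 and 5.70 against 29.0 and 22.9 CPM (-2.20, standard error 0.20, adjusted p = 0.00253). The remaining genes named in this direction were Igkv3-2, Lrmda, Abhd14b, Hist1h2ac and Pbx4. Of these, Igkv3-2, Abhd14b and Pbx4 did not pass without WT library 1, nor did Pbx4 without WT library 2. Of the 12, Igkv3-2 is an immunoglobulin gene with at most 2 carrying members in any library, and the histone gene Hist1h2ac has many near-identical copies.

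**Figure D4:**
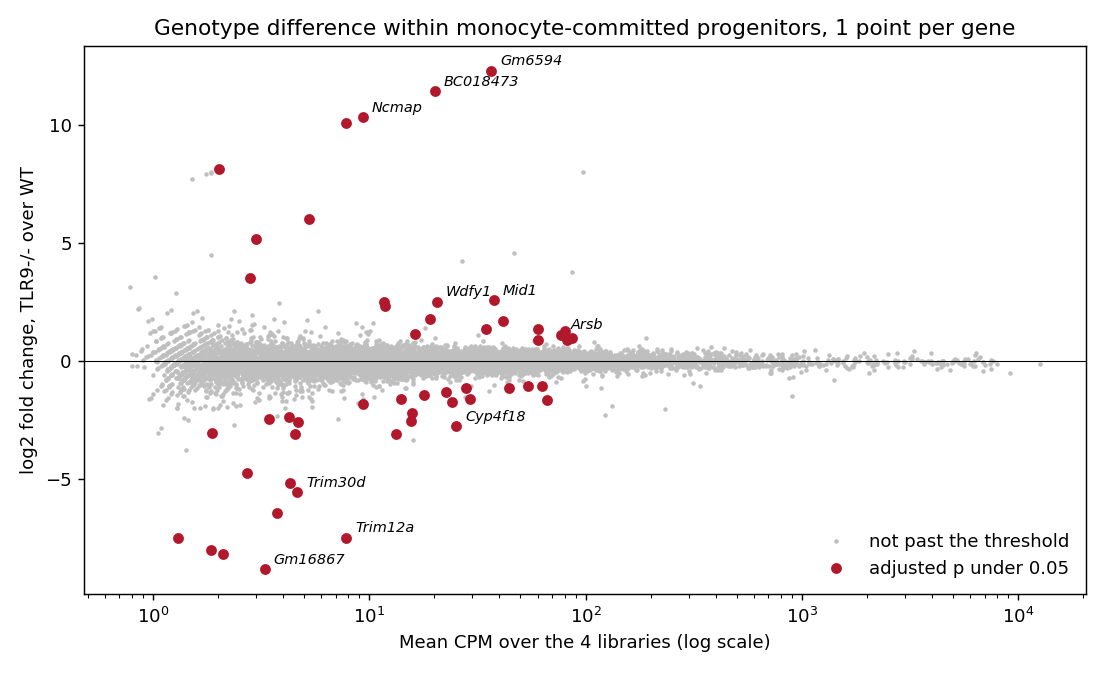
Log2 fold change, TLR9-/- over WT, within monocyte-committed progenitors against the mean CPM over the 4 libraries (log axis), with 1 point per gene and the 51 genes past an adjusted p under 0.05 in red. The genes with the largest differences are of low to medium abundance, and 5 called genes have 0 UMIs in WT members and 4 have 0 in TLR9-/- members, so that their plotted fold changes depend on the fit.

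The values of these genes in the neighbouring classes, which come from the same mice and are not independent, are given side by side. The log2 fold change of Wdfy1 was 2.51 in members, 2.11 in granulocyte-committed progenitors and 1.60 in classical monocytes, that of Mid1 was 2.57, 2.99 and 2.85, and that of Cyp4f18 was -2.76, -1.01 and -2.83. Of these, Wdfy1 in classical monocytes (adjusted p = 0.0951) and Cyp4f18 in granulocyte-committed progenitors (adjusted p = 0.537) did not pass the threshold. In the genome (GRCm38, GENCODE M21 annotation) the called genes often lay near each other. Of the 51, 27 (52.9%) had another called gene within 5 Mb, against 1883 of 10746 other tested genes (17.5%) with a called gene that near, a window chosen after the positions were seen. On chromosome 11, St6galnac2, BC018473 and Mettl23 started at 116675303, 116752167 and 116843278, and the first and second were at 0 in WT members while Mettl23 stood at 41.1 and 39.7 CPM in TLR9-/- and 85.4 and 84.5 CPM in WT members. On chromosome 8, Pbx4, Borcs8, Ocel1 and Cyp4f18 started between 69832491 and 71988482. Within 10 Mb of Tlr9, on chromosome 9, 2 of 148 genes tested were called (1.35%, against 0.472% of all genes), Abhd14b and Pxylp1, both lower in TLR9-/- members. With a count of 2, nothing is read from this share.

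None of the 5 marker genes of the progenitors passed the threshold between genotypes. Mpo, Prtn3, Irf8 and Csf1r, and with them 4 of the 10 granule protein genes below, were used to choose the cells in both genotypes, so their values here are a description. The fold change on the log2 scale was 0.44 for Mpo (standard error 0.21, adjusted p = 0.577), 0.08 for Prtn3 (0.17, adjusted p = 0.903), 0.17 for Irf8 (0.14, adjusted p = 0.749), -0.13 for Csf1r (0.14, adjusted p = 0.805) and -0.38 for Ly6c2 (0.18, adjusted p = 0.565). In the 10 primary granule protein genes 0 passed, with a median log2 fold change of 0.13. Transcription factors gave 0 calls in 15 genes. PU.1 (Spi1), the ETS factor of myeloid cells, stood at 350 and 346 CPM in TLR9-/- and 302 and 247 CPM in WT members (log2 fold change 0.34, adjusted p = 0.533), and Id2 at 14.7 and 14.8 against 20.1 and 24.6 CPM (-0.60, adjusted p = 0.354).

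In the fit without a block, neither monocyte maturation genes nor early progenitor genes held a gene past the threshold. With the replicate number as a block, Chil3, Ly86, Myc and Cd27 passed, as given in the closing section. Of 18 maturation genes tested, 0 passed, 6 had an unadjusted p under 0.05 (against 9.46% of all genes), all lower, and 14 (against 21.4% of all genes) lay lower in both TLR9-/- libraries, with a median log2 fold change of -0.31. Chil3, a chitinase-like protein, stood at 611 and 572 CPM in TLR9-/- and 838 and 833 CPM in WT members (log2 fold change -0.50, adjusted p = 0.324). Ly86, a co-receptor of the Toll-like receptor relative RP105, stood at 200.1 and 193 against 321 and 248 CPM (-0.54, adjusted p = 0.358), and Ccr2 at 154 and 146 against 189 and 198 CPM (-0.36, adjusted p = 0.469). Of 13 early progenitor genes tested, 0 passed, 4 had an unadjusted p under 0.05 (against 9.46% of all genes), all higher, and 6 (against 19.8% of all genes) lay higher in both TLR9-/- libraries, with a median of 0.31. Myc stood at 138 and 138 against 97.9 and 81.1 CPM (log2 fold change 0.63, adjusted p = 0.237), the receptor Cd27 at 16.8 and 21.9 against 9.88 and 11.5 CPM (0.86, adjusted p = 0.26) and Hoxa9 at 9.59 and 10.1 against 5.09 and 6.01 CPM (0.82, adjusted p = 0.358).

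The summed UMIs of the maturation genes over those of the early genes gave log2 ratios of 2.73 and 2.72 in TLR9-/- members and 3.25 and 3.22 in WT members. The genotypes did not overlap, and the difference of -0.51 (2.73 ± 0.00904 against 3.23 ± 0.0233; SD, n = 2 libraries per genotype) was larger than the spread between libraries, with an exact permutation p = 0.33 (two-sided), the smallest this design allows. It was -0.51 without Lyz2 and -0.38 as a difference of mean log2(CPM + 10). Npm1 held most of the early sum, with 1752 of 2334 and 1780 of 2390 CPM in TLR9-/- members. In WT members it held 1562 of 2047 and 1375 of 1860 CPM. The ratio of sums thus rests largely on Npm1 on the early side, and it was not repeated without that gene. Members of both genotypes were chosen by the same threshold on raw UMIs while TLR9-/- members were deeper. The part of depth in this difference was not tested.

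**Figure D5:**
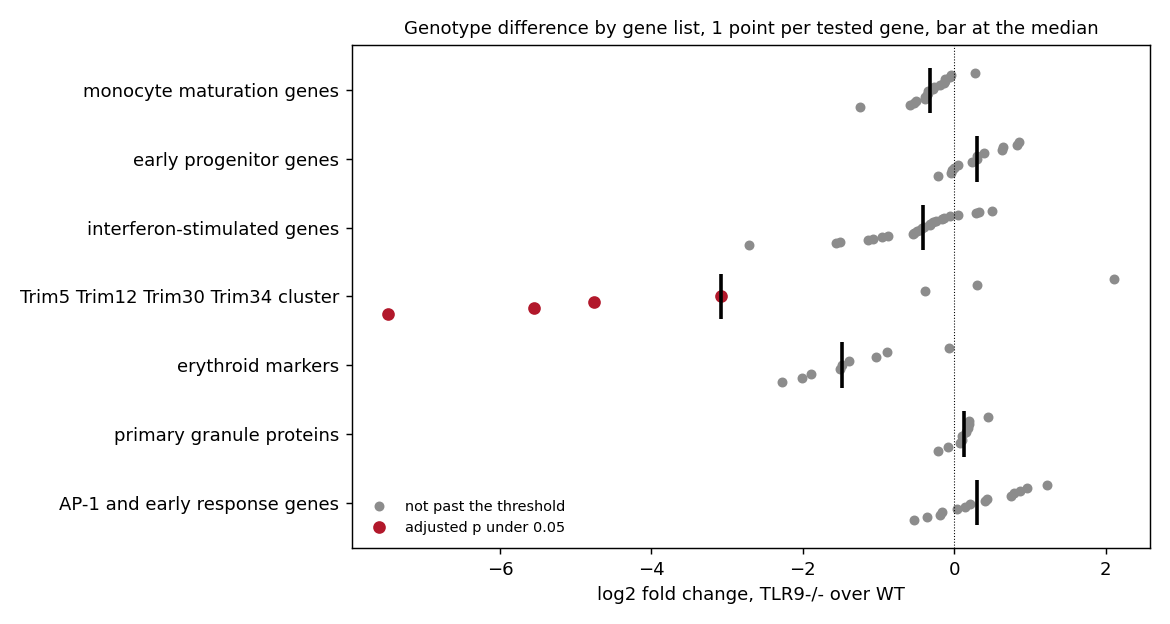
Log2 fold change, TLR9-/- over WT, of the tested genes of 7 lists within monocyte-committed progenitors, with 1 point per gene, a bar at each list's median and red for an adjusted p under 0.05. Only the Trim cluster holds called genes; maturation genes lie mostly below 0 (median -0.31) and early progenitor genes mostly above (median 0.31).

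Interferon-stimulated genes gave 0 calls in 24 tested, 8 lay lower in both TLR9-/- libraries (against 21.4% of all genes) and the median log2 fold change was -0.41. Rsad2, an antiviral enzyme, stood at 1.61 and 1.86 CPM in TLR9-/- and 6.89 and 3.44 CPM in WT members (-1.56, adjusted p = 0.297), and Oasl2 at 0.537 and 0.687 against 5.99 and 2.29 CPM (-2.71, adjusted p = 0.13). WT library 1 was the highest for both genes. With the replicate number as a block, Oasl2 and Zbp1, a further gene of this list, passed. So did genes of several lists that follow, as given in the closing section. In 10 HIN-200 genes 0 passed (median -0.64), with Ifi204 at 8.83 and 9.55 against 25.8 and 15.2 CPM (-1.15, adjusted p = 0.167). Toll-like receptors and their signalling genes gave 0 calls in 22, with the kinase Irak4 at 8.44 and 9.35 against 16.8 and 17.5 CPM (-0.94, adjusted p = 0.136). Of 14 inflammatory cytokine and NF-kB genes 0 passed, among them the NF-kB inhibitor Nfkbia at 53.7 and 56.4 against 78.5 and 80.8 CPM (-0.53, adjusted p = 0.282).

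Of 14 AP-1 and early response genes 0 passed. Fos, a subunit of AP-1, stood at 4.41 and 0.628 UMIs per 10000 in TLR9-/- members and 1.82 and 0.725 in WT members, so the libraries numbered 1 were high and those numbered 2 low in both genotypes. In 13 osteoclast differentiation genes tested 0 passed (median -0.12). Acp5, the osteoclast phosphatase, stood at 6.98 and 7.63 against 11.4 and 10.6 CPM (-0.59, adjusted p = 0.469), and Ctsk, Dcstamp, Ocstamp, Calcr and Atp6v0d2, genes of mature osteoclasts, had 0 UMIs in members of all 4 libraries. In receptor genes for growth factors and cytokines 0 of 15 passed, with Csf2rb at 40.2 and 55.1 against 54.8 and 90.2 CPM (-0.61, adjusted p = 0.491).

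Among effector genes, the NADPH oxidase subunit Cybb stood at 148 and 154 CPM in TLR9-/- and 231 and 203 CPM in WT members (log2 fold change -0.53, adjusted p = 0.293) and Cyba at 903 and 899 against 1178 and 1197 CPM (-0.40, adjusted p = 0.443), while 0 of 6 subunits passed. Of 22 lysosomal genes 0 passed, with the protease Ctsl at 36.1 and 36.3 against 22.2 and 24.1 CPM (0.65, adjusted p = 0.26). Of 13 genes of MHC class I and peptide loading 0 passed, with H2-Q7 at 14.7 and 18.7 against 34.7 and 26.6 CPM (-0.88, adjusted p = 0.198). In 8 dendritic cell and MHC class II genes 0 passed (median -0.22). Heat-shock chaperones gave 0 calls in 7, of which 5 lay higher in both TLR9-/- libraries (against 19.8% of all genes), with Hspa8 at 1438 and 1252 against 974 and 962 CPM (0.47, adjusted p = 0.382). Of the genes of division, 0 of 20 replication genes (median 0.05) and 0 of 28 genes of G2 and mitosis (median 0.02) passed the threshold. Among the latter, 9 lay higher in both TLR9-/- libraries (against 19.8% of all genes) and 3 lower (against 21.4%). Erythroid markers lay lower in both TLR9-/- libraries for 8 of 9 genes tested (against 21.4% of all genes), with 0 past the threshold and a median of -1.48. Slc4a1, the anion exchanger of red cells and not in that list, was among the genes that fell, at 4.68 and 3.57 CPM in TLR9-/- and 16.5 and 12.9 CPM in WT members (adjusted p = 0.0199), and was singled out after its value was seen.

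The last comparison tested whether a genotype difference in members differed from that in granulocyte-committed progenitors of the same libraries. Of 10402 genes, 21 passed an adjusted p under 0.05 (0.202%), of which 16 had a larger value in members. The smallest p belonged to Jchain, Igha, Igkv6-23, Igkv3-2 and Arsb. Jchain, the joining chain of secreted antibodies, had 2316 and 12 UMIs in TLR9-/- members and 20 and 5 in WT members, and 62.8% of the UMIs of TLR9-/- library 1 came from 1 cell. In the same library 1 cell held 96.4% of the Igha UMIs and 99.7% of the Igkv6-23 UMIs. Arsb was spread over many cells, with 670 and 612 TLR9-/- members and 112 and 127 WT members carrying it. Its log2 fold change was 1.11 in members (adjusted p = 0.0217), -0.24 in granulocyte-committed progenitors (adjusted p = 0.632) and 2.46 in classical monocytes (adjusted p = 0.000246), and the difference between members and granulocyte-committed progenitors was 1.34 (standard error 0.13, adjusted p = 6.28e-05).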

How the data were processed

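Single-cell 5′ libraries from 2 TLR9-/- and 2 WT mice were analysed from the deposited UMI counts per gene and cell, which the authors made with Cell Ranger 3.0.1 (per the file headers) on build mm10. STAR and Seurat 2.3.4 are named in the submitters' processing notes; the counts used here were not normalized. Here cells were filtered and gated as described, with R 4.3.3, Python 3.11.15, scanpy 1.11.5, numpy 2.4.6 and scipy 1.17.1, and UMIs were summed per library and class. Genes passing filterByExpr were scaled by TMM and tested with edgeR 4.0.16 (quasi-likelihood, two-sided, Benjamini-Hochberg adjustment over all genes tested); DESeq2 1.42.0 was an alternative. CPM of single genes are after TMM scaling. Summed CPM of marker lists, the CPM of their most abundant gene and values per 10000 are unscaled. The limit of 10% mitochondrial UMIs reads the methods' printed limit as a fraction. Doublets were scored at 0.8% per 1000 cells and kept. Whether counting used strand is not given in the sources used here.

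Named genes were the 12 largest fold changes per direction among called genes with at least 20 UMIs in every library of the higher genotype (10 genes and 50 UMIs between classes, without rule and immunoglobulin genes), up to 5 by p for the difference of genotype effects, the markers, Tlr9 and up to 4 per pathway list by p. Others named were chosen after their values were seen. Members and lists were chosen with earlier results of these data known. Scripts were tested on simulated data. Depth per library is given above and intervals cover counting error only. Same-numbered libraries were not shown by the labels to share an experiment. Not analysed here were cells failing the filters. Markers of plasmacytoid dendritic cells, T and NK cells, basophils and mast cells, megakaryocytes, macrophages, plasma cells and stromal cells are given in the closing section.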

Additional observations from a re-analysis of the deposited data

Results flagged for a closer look

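The genotype difference in members differed from that in granulocyte-committed progenitors, by the test of the difference itself, for 11 of the genes considered by name (edgeR's quasi-likelihood test, Benjamini-Hochberg adjustment over 10402 genes). On the log2 scale the difference was 10.66 for Jchain (adjusted p = 8.12e-09), 10.94 for Igha (adjusted p = 3.17e-07), 10.81 for Igkv6-23 (adjusted p = 1.74e-05), -9.54 for Igkv3-2 (adjusted p = 6.28e-05), 6.69 for Iglv1 (adjusted p = 0.00121), 4.14 for Igkc (adjusted p = 0.00833) and 1.11 for Ighm (adjusted p = 0.0121), all immunoglobulin genes or the joining chain. For Igkc, 1 cell held 607 of 875 UMIs in members of TLR9-/- library 1 and 374 of 601 in granulocyte-committed cells of WT library 1. For Ighm no cell held more than 12.98% of the UMIs in either class and any library. At least 1 Ighm UMI was found in 77.4% and 87.1% of TLR9-/- and 65.7% and 69.3% of WT members, and in 30.2% and 51.8% against 40.5% and 33.1% of granulocyte-committed cells, shares that were not thinned to a common depth and are not read as expression. For Igkv3-2, 1 member held all 37 UMIs of WT library 1 and 1 granulocyte-committed cell held 60 of the 72 UMIs of TLR9-/- library 2. Smim5 gave 2.04 (adjusted p = 0.0121). The difference was 0.72 for S100a9 (adjusted p = 0.000277), whose log2 fold change was 0.05 in members and -0.67 in granulocyte-committed progenitors. Ngp gave 1.09, with -0.28 in members and -1.43 in granulocyte-committed progenitors. The rule limited Ngp, so its value is a description and no test, although Ngp is counted among the 11. Arsb gave 1.34 (adjusted p = 6.28e-05).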

How the results depend on the processing

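Leaving out members with lymphoid or globin UMIs was an alternative chosen after seeing the data. The log2 difference in the share of members kept its direction under the 12 alternatives tried. It passed the threshold with at least 20 granule UMIs (1.61, adjusted p = 0.0365), with a margin of at least 2 UMIs (1.61, adjusted p = 0.0431), in cells thinned to 2000 UMIs (1.28, adjusted p = 0.0190), without members carrying lymphoid or globin UMIs (1.56, adjusted p = 0.0408) and with erythroid and neutrophil cells left out of the total (1.51, adjusted p = 0.0268). It did not pass without marked doublets (adjusted p = 0.0556) or at a mitochondrial limit of 5% (adjusted p = 0.0611), and was 1.46 to 1.57 with single libraries left out. The difference in cycling cells turned to 1.61 percentage points at 2000 UMIs, 0.846 without thinning and 0.547 at a limit of 2 UMIs, and was -3.13 to 0.0790 with single libraries left out. The cause of these changes was not tested.

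The 51 genotype calls became 259 without a filter on low counts and 40 to 170 with single libraries left out, at 40 without WT library 1 (29 of them shared), 170 without TLR9-/- library 1 and 143 without TLR9-/- library 2. DESeq2 called 67, of which 46 were shared. Without lymphoid or globin members there were 43, with 40 shared, with a margin of at least 2 UMIs 38, all shared, and in cells thinned to 2000 UMIs 35, with 30 shared. The calls against granulocyte-committed progenitors fell to 2891 without a term for library, and RLE scaling split them into 2356 higher and 2491 lower, against 2516 and 2312. The 21 differences between members and granulocyte-committed progenitors became 72 without the filter and 20 to 64 with single libraries left out.

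With the replicate number as a block, the log2 difference in share was 1.52 (adjusted p = 0.00478, edgeR), with 6 of 15 classes called in place of 0, and 202 genes were called, the 51 included. Same-numbered libraries deviated together (r = 0.33 across 10806 genes, which are not independent), but the labels do not say that a number marks a shared experiment, and there are only 2 pairs.

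Of 1354 values of 98 single genes, 11 reversed, 43 passed the threshold newly and 27 no longer passed. Calls were lost for St6galnac2, Fn3krp, Igkv3-2, Trim34a, Abhd14b, Pbx4 and Trim5 without WT library 1, for Pbx4 without WT library 2, for St6galnac2, Gm9008, Fn3krp, Fbp1, Trim34a and Pbx4 in thinned cells, for St6galnac2, Cited4, Fbp1, Abhd14b and Pbx4 without lymphoid or globin members, for St6galnac2, Fn3krp, Cited4 and Pbx4 with the wider margin, for Gm9008, Fn3krp and Igkv3-2 by DESeq2 and for Fn3krp without marked doublets. With the replicate block, Csf2rb, Chil3, Ly86, Myc, Cd27, Nfkbia, Oasl2, Zbp1, Ifi204, Irak4, Ccl4, Ctsl, H2-Q7 and Cybb gained a call. H2-Ab1 turned to 0.0227 without lymphoid or globin members. With single libraries left out, log2 fold changes ranged from -0.00955 to 0.17 for Prtn3, -0.13 to 0.46 for Ctsg, -0.99 to 0.16 for H2-Eb1, -0.37 to 0.0482 for Cd74, -0.53 to 1.47 for Zfp36, -0.10 to 3.07 for Nr4a1, -0.67 to 1.60 for Jun, -0.0719 to 0.29 for Rac2 and -0.0683 to 0.21 for Ncf4. Genes with few UMIs in WT members, the shallower libraries, are the least certain.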

Other observations

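Markers of further cell types were also found in members, and their part in the genotype differences was not tested. The 10 T and NK cell markers summed to 227 and 277 CPM in TLR9-/- and 354 and 247 CPM in WT members, led by Nkg7, and the 7 plasmacytoid dendritic cell markers to 104 and 95.2 against 132 and 74.2 CPM, led by Ly6d. The 6 basophil and mast cell markers summed to 117 and 81.9 against 280 and 87.6 CPM, of which Prss34 gave 210.5 CPM in WT library 1. The megakaryocyte markers summed to 7.70 and 22.7 against 47.8 and 17.1 CPM, the macrophage markers to 9.32 and 18.1 against 22.4 and 20.4 CPM and the stromal markers to 1.31 and 1.26 against 0.896 and 22.7 CPM. The 5 plasma cell markers reached 521 CPM in TLR9-/- library 1 against 8.39 CPM in TLR9-/- library 2 and 43.3 and 23.2 CPM in the WT libraries. In each of these lists 0 genes passed the threshold between genotypes, stromal markers having 0 genes tested. Of 76 ribosomal protein genes tested 0 passed, with a median log2 fold change of -0.04.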
